A study of Mus musculus with 9 samples.

Results

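The genes followed across enteric glia in culture and in tissue were 33 genes of oxygen sensing, glycolysis and the response to low oxygen. They were taken as a list, by gene symbol: 3 oxygen-sensing genes, 2 glucose and lactate transporters, 11 genes of upper and 7 of lower glycolysis, 2 genes of the mitochondrial switch and 8 further hypoxia targets. Of the 33 genes, 30 had at least 1 probe (47 probes) on the bead array, out of 16593 genes with a probe, and 28 had a probe detected on at least 1 array and were tested among 10796 genes. Gpi1, Eno1 and Ankrd37 had no annotated probe and were not analysed here. The single probes for Pgk1, the phosphoglycerate kinase of lower glycolysis, and Bnip3, a mitophagy receptor, were detected on 0 of 9 arrays and were not tested.

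RNA was measured on 9 arrays, 3 each from LPS-stimulated gliospheres, untreated gliospheres and GFAP-glia in vivo. All cells came from litters of FVB/hGFAP-eGFP mice (postnatal day 7) that express the fluorescent protein from a human GFAP promoter, and were sorted for it from the small intestinal longitudinal muscle and myenteric plexus, with 1 pooled litter per replicate. GFAP-glia in vivo went straight from the sorter into lysis buffer. Gliospheres are spheres grown from such cells after about 2 weeks in serum-free medium with EGF and bFGF at 2% oxygen, and LPS-stimulated gliospheres received 100 µg/ml of lipopolysaccharide (LPS), a bacterial cell wall component, for 48 h, while untreated gliospheres from the same litter received none. The labels give the oxygen level for the adherent culture and do not restate it for the sphere stage, and not every cell of a gliosphere carries the fluorescent protein. Culture, growth factors, oxygen and the sphere form all separate gliospheres from GFAP-glia in vivo, so their parts cannot be told apart.

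Under ample oxygen, prolyl hydroxylases mark the hypoxia-inducible factor HIF-1α for destruction, and at low oxygen the protein builds up and binds short ACGTG or GCGTG letters near its target genes. Its known targets include glucose transporters, most glycolytic enzymes, the kinase that holds pyruvate out of mitochondria, angiogenic factors and collagen-modifying enzymes. Glycolysis splits glucose into pyruvate, which lactate dehydrogenase turns into lactate, and astrocytes, the glia of the brain, are known for a high glycolytic rate.

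Values are normalized log2 intensities, on which 1 unit is about a 2-fold difference, and they rank arrays for 1 probe but not probes against each other. Each gene is given by its brightest tested probe, and a gene passed the test at a Benjamini-Hochberg adjusted p under 0.05 over 14795 probes (limma). Across all genes, arrays within a gliosphere group correlated at 0.97 to 0.98. In vivo array 1 stood apart, with r = 0.91 and 0.90 to in vivo arrays 2 and 3, which correlated at 0.96 with each other. The Gfap probe was detected on 3 of 3 LPS, 3 of 3 untreated and 0 of 3 in vivo arrays, against the name of the sorted cells. The mean level of 7 enteric glial markers was 9.19 to 9.46 on LPS arrays, 9.26 to 9.81 on untreated arrays and 8.19 to 8.85 on in vivo arrays. Of the 7, 2 were higher and 1 lower in untreated gliospheres than in vivo, where 13.2% of all genes were higher and 12.9% lower. Their median difference was 0.38, against 0.09 over all genes. Gfap is among the 7 and entered the test only through the gliosphere arrays, so its own difference is not read as a result. The mean level of 12 neuronal markers was 8.82 to 9.12 on LPS arrays, 8.71 to 9.12 on untreated arrays and 11.03 to 11.33 on in vivo arrays. The neurofilament gene Nefm entered the test only through the in vivo arrays, so its difference is not read as a result. It was detected on 0 of 3 LPS, 0 of 3 untreated and 3 of 3 in vivo arrays. The mean level of 8 smooth muscle markers was 5.90 to 6.04, 5.77 to 5.94 and 7.55 to 8.84 on the same arrays. In such bulk RNA, fewer cells of a type and less RNA per cell cannot be told apart.

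LPS raised few of these genes past the test. Of 28, 1 was higher, the prolyl 4-hydroxylase subunit gene P4ha2, and 0 were lower, where 0.760% of all genes were higher and 0.204% lower (limma). At an unadjusted p under 0.05, 5 were higher and 0 lower. The share of all genes at that cutoff was not counted, so this count is descriptive only. Most of the differences were positive. This held for 22 of 28 genes with a median of 0.26, against -0.01 over all genes tested. On every LPS array 11 genes lay above every untreated array and 0 lay below, where 9.87% of all genes lay above and 9.86% below. Within litters, 17 genes were higher under LPS in all 3 and 1 gene (Pfkm) was lower in all 3, beside 19.4% and 20.5% of all genes.

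Gliospheres and GFAP-glia in vivo differed in both directions. In untreated gliospheres 5 genes were higher (Egln3, Hk2, P4ha1, P4ha2 and Vegfa) and 3 lower (Hk1, Eno2 and Gapdh), with 13.2% of all genes higher and 12.9% lower. On every untreated array 7 genes lay above and 6 below every in vivo array, where 23.8% of all genes lay above and 19.3% below. The members' median difference was -0.05, against 0.09 over all genes. In LPS gliospheres 7 were higher (the same 5 with Slc2a1 and Pdk1) and 3 lower (Hk1, Pfkm and Eno2), with 14.8% of all genes higher and 14.5% lower, and the median was 0.21 against 0.08. On every LPS array 8 lay above and 4 below every in vivo array, where 25.1% of all genes lay above and 20.5% below. As shares of the 28 genes, 17.9% were higher and 10.7% lower in untreated gliospheres, and 25% were higher and 10.7% lower in LPS gliospheres. The 3 comparisons share arrays pairwise, so each is given by its own values.

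**Figure D1:**
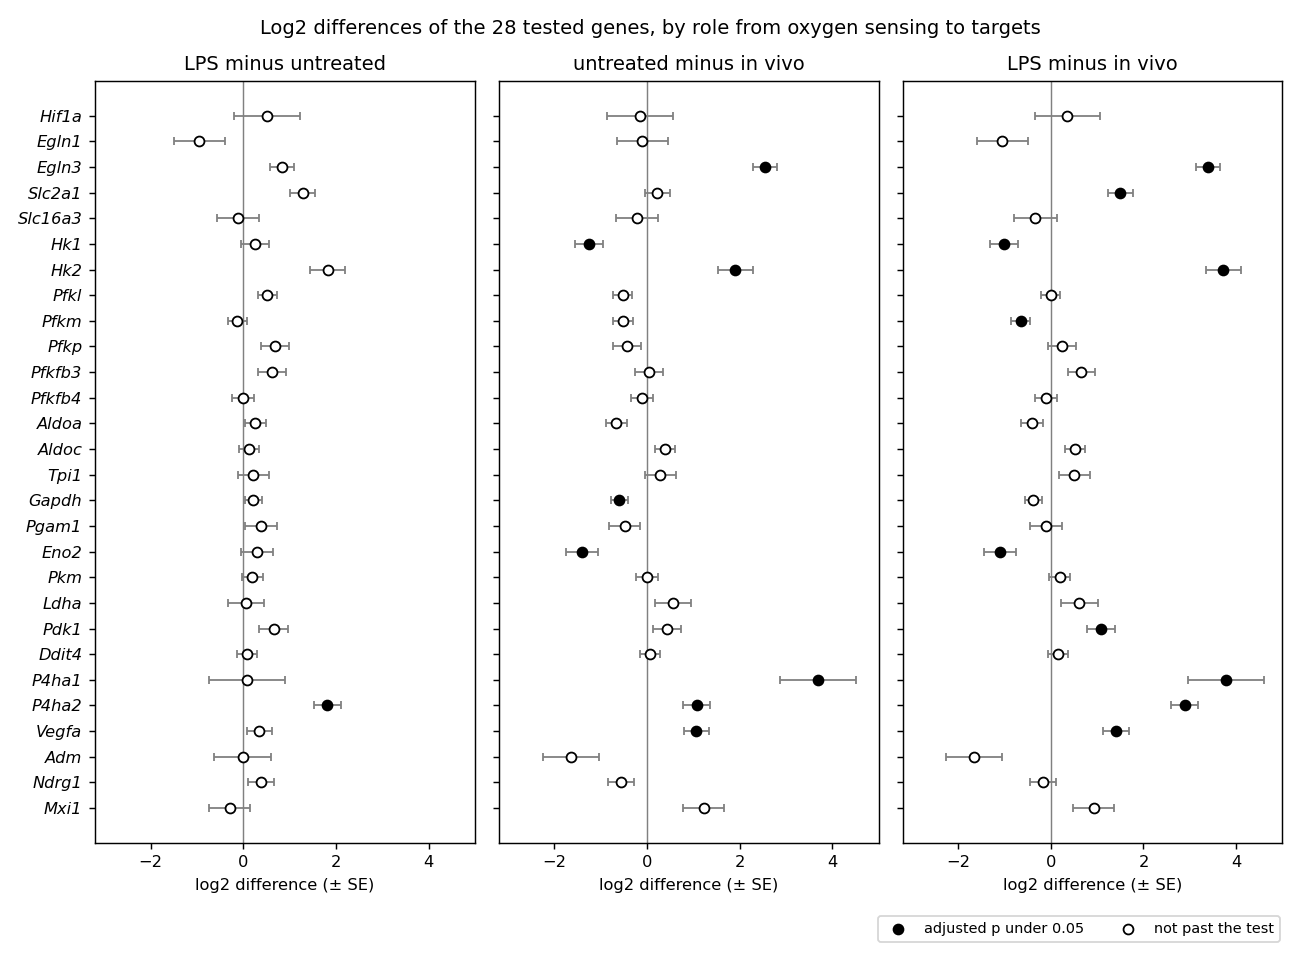
Log2 differences with standard errors of the 28 tested genes (rows, by role) for LPS minus untreated, untreated minus in vivo and LPS minus in vivo. Filled points passed the test. In the left panel 22 of 28 points lie right of 0, and P4ha2 alone is filled, whereas the middle and right panels hold filled points on both sides.

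Among the oxygen-sensing genes, Egln3 was the one that differed. It encodes the prolyl hydroxylase PHD3, itself a HIF target that damps the response. Egln3 measured 9.78, 10.15 and 10.04 on LPS arrays, 9.35, 9.35 and 8.74 on untreated arrays and 6.62, 6.84 and 6.32 on in vivo arrays. The 3 groups did not overlap, and in vivo arrays were the lowest by far. Untreated gliospheres exceeded in vivo cells by 2.56 ± 0.26 (SE, adjusted p = 0.000179, limma), and LPS gliospheres exceeded them by 3.40 ± 0.26 (adjusted p = 2.94e-05, limma). Between LPS and untreated gliospheres the difference was 0.84 ± 0.26 and did not pass (adjusted p = 0.315, limma), although LPS was higher in 3 of 3 litters. A second Egln3 probe was detected on 1 of 9 arrays, an LPS array, so its values are not compared.

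The transcript of the factor itself, Hif1a, did not pass in any comparison. It measured 8.19, 7.81 and 8.34 under LPS, 7.55, 8.12 and 7.12 untreated, and 9.69, 7.00 and 6.57 in vivo. The first in vivo array was the highest of all 9 and the other two in vivo arrays were the lowest. Without that array, LPS gliospheres were higher than in vivo cells by 1.33 (adjusted p = 0.016, limma), against 0.36 with it (adjusted p = 0.742, limma). Egln1, which encodes the main oxygen sensor PHD2, was dim (detected on 1 of 3 LPS, 3 of 3 untreated and 3 of 3 in vivo arrays) and passed in no comparison.

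Of the genes higher in untreated gliospheres than in vivo, the promoters of the 4 with the largest differences that hold a HIF core are shown, since these letters are what HIF binds. Each is 300 bases of the RefSeq annotation on GRCm38.p6, from 250 bases before the start site to 50 after, 5′ to 3′ on the gene's strand, with ACGTG or GCGTG on either strand in capitals (CACGT and CACGC are their reverse complements). P4ha1 is chr10:59323046-59323345 on the plus strand, Egln3 chr12:54203825-54204124 on the minus strand, Hk2 chr6:82774405-82774704 on the minus strand and P4ha2 chr11:54100674-54100973 on the plus strand.
P4ha1: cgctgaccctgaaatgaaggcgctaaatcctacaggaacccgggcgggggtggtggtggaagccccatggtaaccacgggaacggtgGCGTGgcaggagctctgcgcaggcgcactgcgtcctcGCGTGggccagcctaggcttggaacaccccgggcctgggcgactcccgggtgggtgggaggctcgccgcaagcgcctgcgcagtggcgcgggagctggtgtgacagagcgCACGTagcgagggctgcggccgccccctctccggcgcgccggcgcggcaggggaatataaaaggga
Egln3: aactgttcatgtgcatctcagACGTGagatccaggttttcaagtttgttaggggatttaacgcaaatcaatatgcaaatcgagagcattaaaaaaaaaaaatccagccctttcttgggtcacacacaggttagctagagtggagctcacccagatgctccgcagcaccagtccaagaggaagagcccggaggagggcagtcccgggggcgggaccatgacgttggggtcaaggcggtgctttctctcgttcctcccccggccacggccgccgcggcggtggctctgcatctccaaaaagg
Hk2: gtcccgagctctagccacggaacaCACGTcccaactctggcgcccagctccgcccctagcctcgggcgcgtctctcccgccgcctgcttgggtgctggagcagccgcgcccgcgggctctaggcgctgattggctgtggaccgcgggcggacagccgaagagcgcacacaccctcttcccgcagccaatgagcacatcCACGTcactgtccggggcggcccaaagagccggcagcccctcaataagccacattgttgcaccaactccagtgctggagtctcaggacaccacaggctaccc
P4ha2: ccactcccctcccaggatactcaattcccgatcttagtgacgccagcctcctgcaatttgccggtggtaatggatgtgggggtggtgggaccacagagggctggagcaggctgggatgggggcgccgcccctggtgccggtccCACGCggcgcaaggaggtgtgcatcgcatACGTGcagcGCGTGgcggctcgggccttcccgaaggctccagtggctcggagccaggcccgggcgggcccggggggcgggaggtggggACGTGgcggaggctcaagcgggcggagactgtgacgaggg
They hold 3, 1, 2 and 4 matches in the order shown. The P4ha1 matches start at -163, -126 and -16 from the start site, the Egln3 match at -229, the Hk2 matches at -226 and -52 and the P4ha2 matches at -107, -78, -69 and 10. Of the 32 list genes with a promoter in the table (Ndrg1 was not matched), 29 had a match in at least 1 window (90.6%), beside 12628 of 27025 genes in all (46.7%). By window, it was 38 of 48 for the list (79.2%) and 14380 of 32851 in all (43.8%). The list's windows also had a higher median GC content, 62.7% against 52.7%, and the part of GC content in the share was not tested. Genes that passed in no comparison held the core as well, among them Aldoc, Pgam1, Ddit4 and Ldha, so the letters are a description of the window only.

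Among the transporters, Slc2a1, which encodes the glucose carrier GLUT1, passed in LPS gliospheres against in vivo cells. It measured 9.98, 10.25 and 9.93 on LPS arrays, 8.71, 8.68 and 8.94 on untreated arrays and 8.02, 8.80 and 8.83 in vivo. LPS arrays lay above all others, while untreated and in vivo arrays overlapped. LPS gliospheres exceeded in vivo cells by 1.50 ± 0.27 (adjusted p = 0.00319, limma). They exceeded untreated gliospheres by 1.28 ± 0.27, in 3 of 3 litters, and this missed the test (adjusted p = 0.081, limma). The Slc2a1 call was gained in 7 of 22 alternatives and not in 15. Without in vivo array 1, which enters the shared spread, it passed (adjusted p = 0.0134, limma), as it did with only the 2 groups compared (adjusted p = 0.0223, limma). With only the gliosphere arrays and their own detection filter, chosen after seeing the data, it passed (adjusted p = 0.0182, limma), and with the litter as a block on the same arrays it did not (adjusted p = 0.0572, limma). Untreated gliospheres differed from in vivo cells by 0.22 ± 0.27 (adjusted p = 0.578, limma). Slc16a3, which encodes the lactate exporter MCT4, was detected on 6 of 9 arrays, 2 in each group, and passed in no comparison.

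The hexokinases, which trap glucose in the cell as glucose 6-phosphate, moved in opposite directions in gliospheres relative to in vivo cells. Hk2, the inducible form, measured 8.83, 9.26 and 8.68 under LPS, 6.99, 7.05 and 7.25 untreated and 5.28, 5.95 and 4.37 in vivo. The groups were fully separate and ordered LPS, untreated, in vivo from high to low, and Hk2 was detected on 2 of 3 in vivo arrays. It was higher in untreated gliospheres than in vivo by 1.90 ± 0.38 (adjusted p = 0.00646, limma) and in LPS gliospheres by 3.72 ± 0.38 (adjusted p = 0.000134, limma). LPS against untreated gave 1.82 ± 0.38, in 3 of 3 litters (1.84, 2.21 and 1.43), with an adjusted p of 0.0787 (limma). With the replicate number as a block over all 9 arrays it did not pass (adjusted p = 0.103, limma). It also did not pass with the litter as a block on the gliosphere arrays alone (adjusted p = 0.056, limma). With the detection filter of the gliosphere arrays, chosen after seeing the data, it passed without the block (adjusted p = 0.0131, limma) and with it (adjusted p = 0.0434, limma). In all, the Hk2 call was gained in 10 of 22 alternatives and not in 12. Among those that gained it were quantile normalization (adjusted p = 0.0166, limma), only the 2 groups compared (adjusted p = 0.0155, limma) and leaving out in vivo array 2 or 3. Over 22 alternatives the difference stayed positive and ran between 1.14 and 1.95.

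Hk1, the form of most tissues including brain, measured 7.97, 7.22 and 7.76 under LPS, 7.33, 7.57 and 7.29 untreated and 9.10, 8.71 and 8.16 in vivo. Every gliosphere array lay below every in vivo array. Hk1 was lower in untreated gliospheres than in vivo by 1.26 ± 0.30 (difference -1.26, adjusted p = 0.0155, limma), a call lost without untreated array 1 or 3 (adjusted p up to 0.0569, limma). In LPS gliospheres the difference was -1.0 ± 0.30 (adjusted p = 0.035, limma), and the call was lost in 11 of 19 alternatives, the replicate number as a block among them (adjusted p = 0.0513, limma). LPS against untreated gave 0.25 (adjusted p = 1, limma). Neuronal markers were higher on the same in vivo arrays, as given above, and their part in the Hk1 difference was not tested.

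The phosphofructokinases carry out the committed step of glycolysis. Pfkm measured 11.53, 11.50 and 11.83 under LPS, 11.79, 11.58 and 11.88 untreated and 12.18, 12.25 and 12.37 in vivo, with all gliosphere arrays below all in vivo arrays. The difference of LPS gliospheres from in vivo cells was -0.65 ± 0.21 (adjusted p = 0.0458, limma), a call lost in 12 of 19 alternatives, the replicate number as a block among them (adjusted p = 0.0689, limma). That of untreated gliospheres was -0.52 ± 0.21 and did not pass (adjusted p = 0.102, limma). A second bright Pfkm probe gave -0.72 in LPS gliospheres (adjusted p = 0.0519, limma). Pfkl measured 11.21, 11.50 and 11.32 under LPS and 10.78, 10.74 and 10.95 untreated, without overlap. Its difference of 0.52 ± 0.20 did not pass (adjusted p = 0.528, limma).

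Pfkp had 3 tested probes. The brightest measured 11.35, 11.32 and 11.75 under LPS, 10.22, 10.86 and 11.31 untreated and 11.34, 11.02 and 11.36 in vivo and passed in no comparison. A second probe, detected on all 9 arrays, went the same way and also passed in no comparison. It gave 1.05 for LPS against untreated, -0.23 for untreated against in vivo and 0.82 for LPS against in vivo. The last, dim probe was detected on 2 of 3 in vivo arrays and on no gliosphere array. It entered the test only through the in vivo arrays, so its difference is not read as a result. Its in vivo mean lay at least 1.27-fold above untreated and 1.22-fold above LPS gliospheres. These are lower bounds, over the lowest level detected on the gliosphere arrays. Averaged over the 3 probes, the dim one included, untreated gliospheres differed from in vivo cells by -1.06 ± 0.30, against -0.44 for the brightest alone. That average carries the same limit. For LPS gliospheres the average gave -0.43 and did not pass, against 0.24 for the brightest.

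The remaining genes of upper glycolysis did not pass. Pfkfb3, a kinase for the activator of phosphofructokinase, was detected on 2 of 3 LPS arrays and on none of the other groups. Its sister Pfkfb4 lay between 8.36 and 9.01 on all 9 arrays. Aldoa, the aldolase of muscle and most tissues, differed by -0.66 between untreated gliospheres and in vivo cells, without overlap between the groups (adjusted p = 0.067, limma). Aldoc, the brain form, was above the in vivo range on every gliosphere array by a mean of 0.40 untreated and 0.51 under LPS (adjusted p = 0.214 and 0.109, limma). Tpi1, triose phosphate isomerase, lay between 13.11 and 13.48 under LPS, 13.00 and 13.27 untreated and 12.06 and 13.25 in vivo.

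In lower glycolysis 2 of 5 genes tested fell in untreated gliospheres relative to in vivo cells and 0 rose, where 12.9% of all genes fell and 13.2% rose. Eno2, the neuron-enriched enolase, measured 12.04, 12.32 and 12.65 under LPS, 11.82, 11.81 and 12.46 untreated and 12.78, 13.61 and 13.89 in vivo. Every in vivo array exceeded every gliosphere array. The difference was -1.40 ± 0.34 in untreated gliospheres (adjusted p = 0.0168, limma) and -1.10 ± 0.34 in LPS gliospheres (adjusted p = 0.0407, limma). The untreated call was lost without untreated array 1 or 2 (adjusted p up to 0.0664, limma), and the LPS call in 9 of 19 alternatives (adjusted p up to 0.133, limma). The neuronal markers moved with it, 7 of 12 lower in untreated gliospheres and 0 higher with a median of -1.29, and their part was not tested.

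Gapdh, glyceraldehyde 3-phosphate dehydrogenase and a common reference gene, measured 14.13, 14.15 and 14.26 under LPS, 13.93, 13.89 and 14.06 untreated and 14.54, 14.51 and 14.61 in vivo. The arrays of the 3 groups did not overlap, with small spreads. The difference of -0.60 ± 0.19 between untreated gliospheres and in vivo cells was at the edge of the test (adjusted p = 0.0481, limma). It was lost in 14 of 19 alternatives, among them the replicate block (adjusted p = 0.0883, limma) and quantile normalization, and stayed between -0.65 and -0.38 in all 19. A second Gapdh probe gave -0.49 (adjusted p = 0.0941, limma).

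The late steps passed in no comparison. Pkm, pyruvate kinase, lay between 13.38 and 13.51 under LPS, 13.18 and 13.29 untreated and 12.98 and 13.66 in vivo. Ldha, which makes lactate, measured 13.42, 13.45 and 13.67 under LPS, 13.38, 13.40 and 13.60 untreated and 11.86, 13.37 and 13.46 in vivo. Apart from in vivo array 1, which was low, the Ldha values of the 3 groups lay within a narrow range. Its difference of 0.56 ± 0.40 in untreated gliospheres against in vivo cells did not pass (adjusted p = 0.331, limma). Pgam1, phosphoglycerate mutase, had every LPS array above every untreated array, with a difference of 0.38 ± 0.34 that did not pass (adjusted p = 1, limma).

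Pdk1, the pyruvate dehydrogenase kinase that holds pyruvate back from the mitochondria, measured 7.26, 7.69 and 7.29 under LPS, 6.22, 6.83 and 7.23 untreated and 6.43, 6.02 and 6.56 in vivo. All LPS arrays lay above the in vivo range, as did untreated arrays 2 and 3, while untreated array 1 lay within it. LPS gliospheres exceeded in vivo cells by 1.08 ± 0.30 (adjusted p = 0.0269, limma), a call lost without any 1 LPS array or in vivo array 2 (adjusted p up to 0.101, limma). The difference of untreated gliospheres was 0.42 ± 0.30 (adjusted p = 0.336, limma), and that of LPS from untreated gliospheres was 0.65 ± 0.30 (adjusted p = 0.694, limma).

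**Figure D2:**
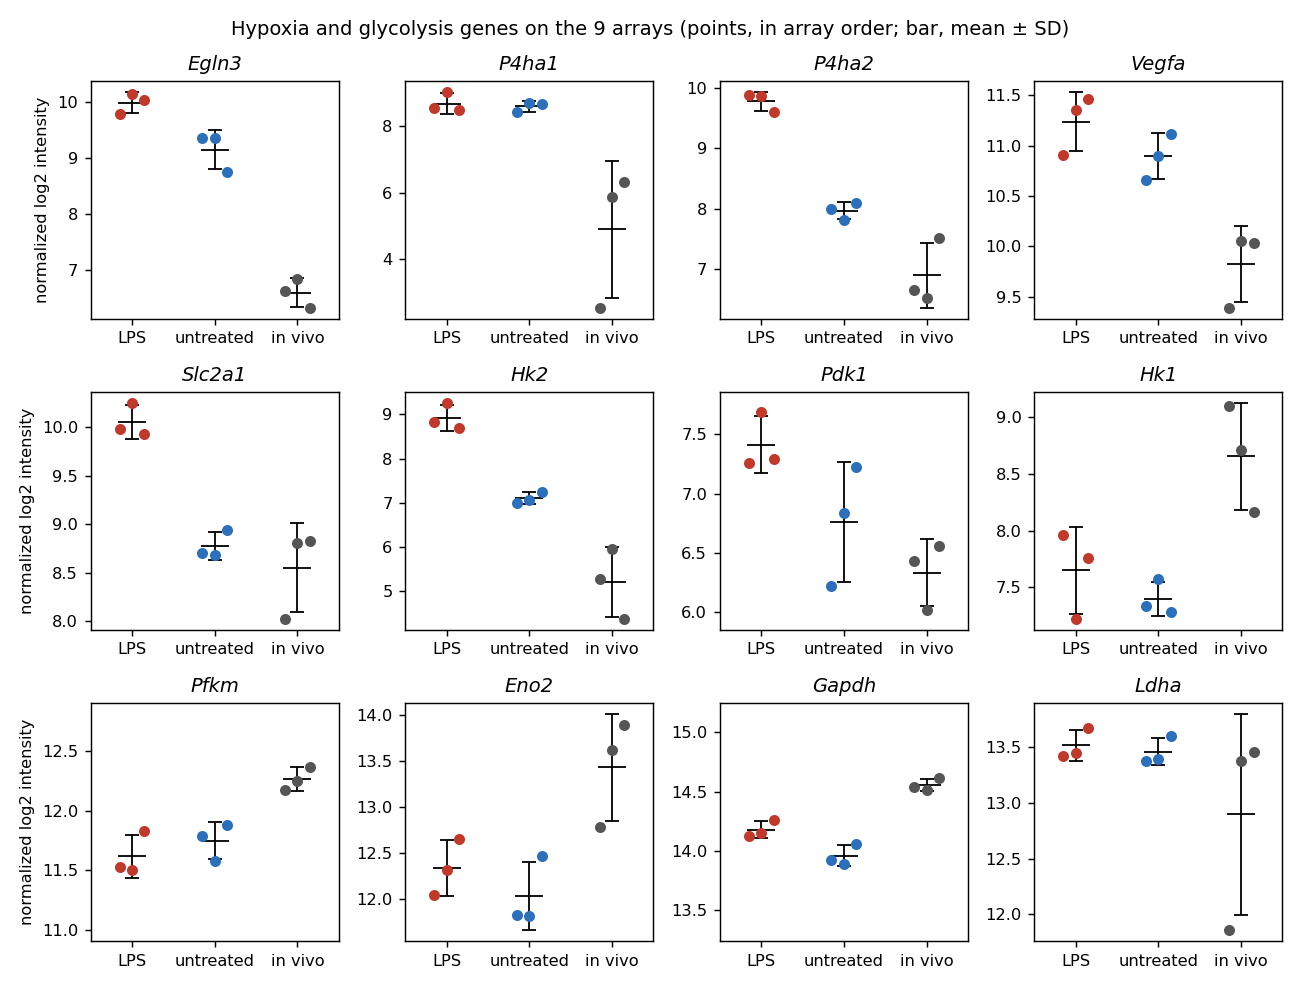
Normalized log2 intensity of 12 genes on LPS, untreated and in vivo arrays (points, 3 per group in array order), with mean and SD as bars, each panel on its own axis. Egln3, Hk2 and P4ha2 are ordered LPS, untreated, in vivo from high to low without overlap, Slc2a1 stands out under LPS alone, Hk1, Pfkm, Eno2 and Gapdh are highest in vivo, and Ldha lies in a narrow range apart from in vivo array 1.

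Both listed collagen prolyl 4-hydroxylase subunit genes were higher in gliospheres than in vivo. The enzymes hydroxylate proline in procollagen in the endoplasmic reticulum, and their α subunits are HIF targets. P4ha1 measured 8.54, 9.04 and 8.48 under LPS, 8.42, 8.72 and 8.66 untreated and 2.54, 5.86 and 6.32 in vivo. LPS and untreated arrays overlapped and all in vivo arrays were lower, with the probe not detected on in vivo array 1. The difference was 3.70 ± 0.82 for untreated gliospheres (adjusted p = 0.0108, limma) and 3.78 ± 0.82 for LPS gliospheres (adjusted p = 0.00843, limma) against in vivo cells. Without in vivo array 1 it was 2.51 (adjusted p = 0.000388, limma) and 2.60 (adjusted p = 0.000265, limma) in the same order. LPS against untreated gave 0.09 ± 0.82 (adjusted p = 1, limma).

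P4ha2 was higher in each step, in LPS gliospheres than in untreated ones and in untreated ones than in vivo. It measured 9.88, 9.86 and 9.60 under LPS, 7.99, 7.81 and 8.09 untreated and 6.64, 6.52 and 7.51 in vivo, so the 3 groups were separate. It rose with LPS by 1.81 ± 0.29 (adjusted p = 0.023, limma), in litters 1 to 3 by 1.89, 2.05 and 1.50. The call was lost when any of the 6 gliosphere arrays was left out (adjusted p up to 0.128, limma) and with the replicate number as a block over all 9 arrays (adjusted p = 0.0619, limma). With the block on the gliosphere arrays alone it held (adjusted p = 0.0475, limma), as it did with the detection filter of these arrays (adjusted p = 0.0373, limma). Against in vivo cells P4ha2 was higher by 1.07 ± 0.29 in untreated gliospheres (adjusted p = 0.0248, limma) and by 2.89 ± 0.29 in LPS gliospheres (adjusted p = 0.000123, limma). The untreated call was lost without any 1 untreated array or in vivo array 2 (adjusted p up to 0.084, limma).

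Vegfa, the vascular endothelial growth factor, measured 10.90, 11.35 and 11.46 under LPS, 10.66, 10.90 and 11.12 untreated and 9.39, 10.05 and 10.04 in vivo. LPS and untreated arrays overlapped, and all lay above in vivo arrays. It was higher than in vivo by 1.06 ± 0.27 in untreated gliospheres (adjusted p = 0.0208, limma) and by 1.41 ± 0.27 in LPS gliospheres (adjusted p = 0.00497, limma). A second probe gave 0.66 in untreated gliospheres (adjusted p = 0.235, limma) and 1.20 in LPS gliospheres (adjusted p = 0.0425, limma). Without untreated array 2 or 3 the untreated call of the brightest probe was lost (adjusted p up to 0.0793, limma).

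The other targets were not called. Ddit4, an inhibitor of mTORC1 signalling, lay between 8.89 and 9.35 under LPS, 8.86 and 9.22 untreated and 8.85 and 9.02 in vivo. Adm, which encodes the vasodilator peptide adrenomedullin, was detected on 2 of 3 in vivo arrays and on no gliosphere array, and passed in neither comparison (adjusted p = 0.0808 for untreated and 0.0728 for LPS gliospheres, limma). Ndrg1, a stress-responsive gene of Schwann cell and other lineages, differed by -0.56 between untreated gliospheres and in vivo cells (adjusted p = 0.187, limma). Mxi1, a MYC antagonist, measured 8.64, 8.37 and 8.11 untreated and 6.05, 7.83 and 7.58 in vivo, and its difference of 1.22 ± 0.45 did not pass (adjusted p = 0.077, limma).

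Spread between replicates differed by group. The median SD over the 28 genes was 0.24 on LPS arrays, 0.17 on untreated arrays and 0.42 on in vivo arrays, beside 0.22, 0.24 and 0.53 over all genes. Much of the in vivo spread came from array 1. For 8 of the 28 genes (28.6%) it lay over 1 log2 unit beyond both other in vivo arrays, as it did for 23.5% of all genes. It was high for Hif1a, Egln1 and Pgam1 and low for Slc16a3, Tpi1, Ldha, P4ha1 and Mxi1. No gene lay so far out on in vivo array 2, and 1 did on in vivo array 3.

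**Figure D3:**
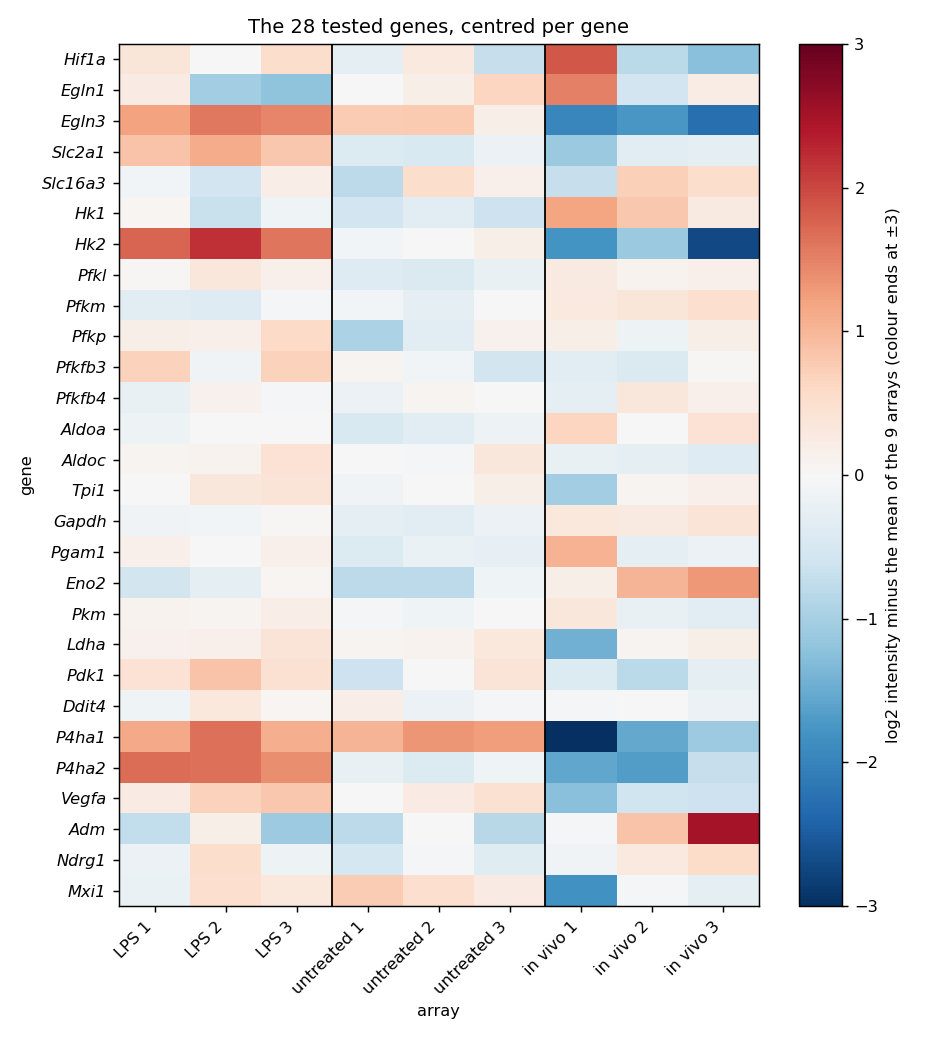
Log2 intensity of the 28 tested genes (rows) on the 9 arrays (columns), less the mean of the gene over the arrays, with the colour scale ending at 3 either way. Egln3, Hk2, P4ha1 and P4ha2 form the strong contrast between gliospheres and GFAP-glia in vivo, and in vivo array 1 departs from arrays 2 and 3 in both directions.

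Other genes of the same pathways were read from further lists, by counts and medians. Of 32 other known hypoxia targets tested, 11 were higher and 3 lower in untreated gliospheres than in vivo. In that comparison 13.2% of all genes were higher and 12.9% lower. The median of the list was 0.77, against 0.09 over all genes. In LPS gliospheres 14 were higher and 3 lower than in vivo, where 14.8% of all genes were higher and 14.5% lower. The median was 0.99 against 0.08. Car9 and Hmox1, counted as higher in both comparisons, were detected on 0 of 3 in vivo arrays. Selenbp1, counted as lower in LPS gliospheres, was detected on no gliosphere array. These genes entered the test only through arrays where they were high, so their calls are not read as results. Between LPS and untreated gliospheres 1 was higher and 0 lower, where 0.760% of all genes were higher and 0.204% lower. The median was 0.17 against -0.01. The largest difference in untreated gliospheres was that of Igfbp3, an insulin-like growth factor binding protein, at 10.73, 9.72 and 10.28 under LPS, 9.0, 9.07 and 8.55 untreated and 6.89, 4.42 and 3.20 in vivo, where it was detected on 1 of 3 arrays. Stc2, which encodes the glycoprotein stanniocalcin 2, followed with 3.00 ± 0.52 (adjusted p = 0.00345, limma). The single gene past the test under LPS was Angptl4, an inhibitor of lipoprotein lipase, at 7.51, 8.19 and 8.01 under LPS, 5.19, 3.73 and 4.75 untreated and 6.08, 7.24 and 7.36 in vivo. It rose with LPS by 3.35 ± 0.45 (adjusted p = 0.0126, limma), and was lower in untreated gliospheres than in vivo (difference -2.34 ± 0.45, adjusted p = 0.00579, limma).

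The oxygen-sensing machinery beyond the 3 listed genes gave few calls. Of 13 such genes, 0 passed between LPS and untreated gliospheres (0 at an unadjusted p under 0.05) and 0 between untreated gliospheres and in vivo cells (3 at an unadjusted p under 0.05). In LPS gliospheres 1 exceeded in vivo cells, the coactivator gene Ep300 (1.01 ± 0.33, adjusted p = 0.046, limma), where 14.8% of all genes were higher. Of 4 further glycolytic isoenzymes and 4 pentose phosphate genes tested, 0 passed in any comparison (limma). At an unadjusted p under 0.05, this was 0 of the isoenzymes and, against in vivo cells, 1 of the pentose phosphate genes. The share of all genes at that cutoff was not counted, so the unadjusted counts of these lists and of the oxygen-sensing machinery are descriptive only. In untreated gliospheres against in vivo cells, 12.9% of all genes were lower and 13.2% higher. In the citric acid cycle, 3 of 16 genes were lower and 1 higher in that comparison. The largest of them was Ogdh, a subunit of the oxoglutarate dehydrogenase complex (-1.51 ± 0.21, adjusted p = 0.00114, limma), and 12 of the 16 did not pass. Of 9 genes of pyruvate and lactate fate, 1 was higher, the pyruvate dehydrogenase phosphatase gene Pdp1 (0.94 ± 0.24, adjusted p = 0.0208, limma).

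**Figure D4:**
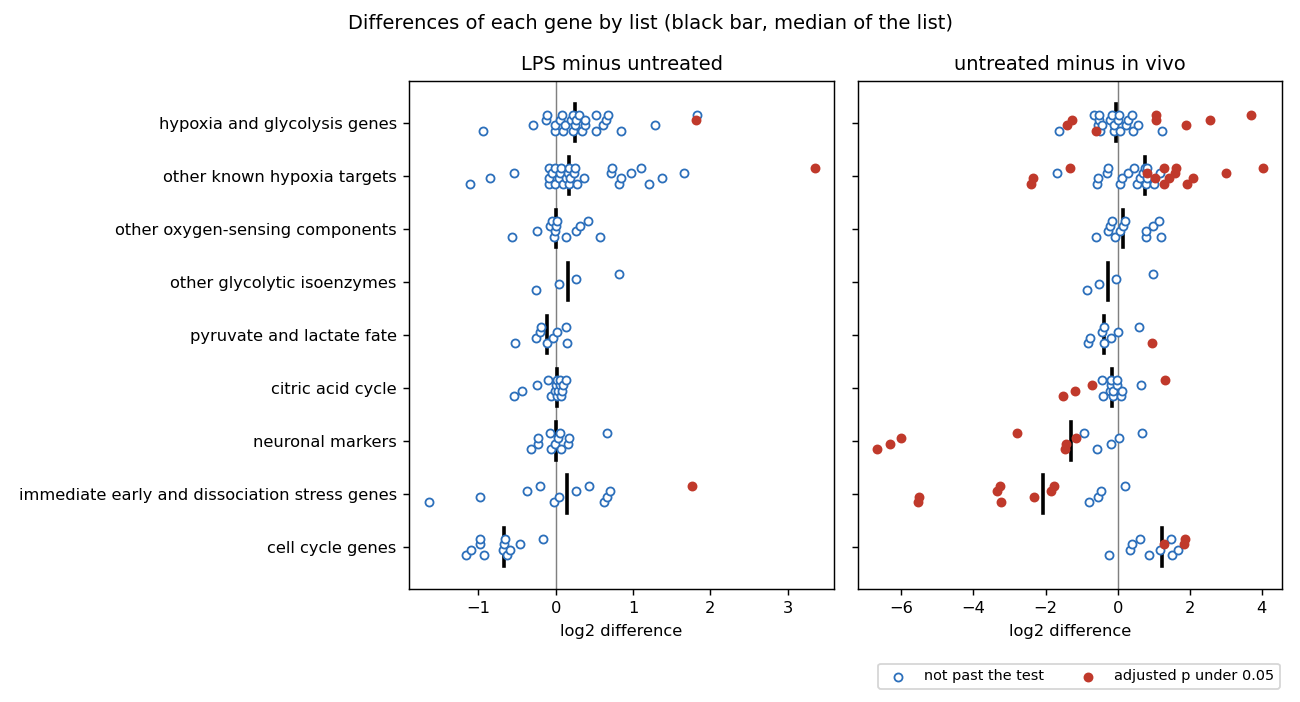
Log2 difference of each tested gene (points) by list (rows), for LPS minus untreated and untreated minus in vivo, with filled points past the test and a black bar at the median. The other known hypoxia targets sit mostly right of 0 in the right panel (median 0.77), while neuronal markers and immediate early genes sit mostly left of 0 (medians -1.29 and -2.08).

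Lists that mark the state of the cells or other cell types also held genes past the test. Of 12 cell cycle genes, 3 were higher and 0 lower in untreated gliospheres than in vivo, with a median of 1.23. In that comparison 13.2% of all genes were higher and 12.9% lower, with a median of 0.09. Of 12 immediate early and dissociation stress genes, 0 were higher and 8 lower, with a median of -2.08, among them the heat shock gene Hspa1a at 6.66, 7.43 and 6.82 untreated and 11.55, 13.15 and 12.81 in vivo. Between LPS and untreated gliospheres, all 12 cell cycle genes had a negative difference with a median of -0.67, against -0.01 over all genes, and 0 passed. Their mean level was 7.37 to 8.05 on LPS arrays and 8.10 to 8.70 on untreated arrays. Of 10 fibroblast and mesenchymal markers, 2 were higher under LPS and 0 lower, where 0.760% of all genes were higher and 0.204% lower. The median of the 10 markers was 0.30. The matrix proteoglycan genes Dcn and Lum were the 2, by 2.80 ± 0.47 (adjusted p = 0.0316, limma) and 2.08 ± 0.30 (adjusted p = 0.0166, limma). The mean level of the 10 markers was 8.71 to 9.15 on LPS arrays and 8.21 to 8.28 on untreated arrays, without overlap. The part of these lists in the differences of the hypoxia and glycolysis genes, the LPS rise of P4ha2 included, was not tested.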

How the data were processed

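RNA of 9 samples was hybridised by the authors to 1-colour Illumina MouseRef-8 v2.0 bead arrays, with 1 value per probe and no pooled columns. The deposited signal table holds probe intensity before background correction and normalization, with a detection p-value beside each signal, as deposited. GenomeStudio is named in the submitters' processing notes, with the version not given in the sources used here. Between 95.7% and 98.2% of the intensity cells per array had lost the decimal point. It was restored from the authors' normalized intensity table, whose columns share 1 set of values, and from the order of values, which left 0 breaks in either order and 2 unsure cells. Restoration and fits were tested on simulated data.

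From the restored intensities, background was corrected with normexp using the detection p-values, and arrays were normalized with variance stabilization (VSN, own code after the published model, keeping a trimmed quantile of 0.9 over 7 iterations at most), on a log2 scale, as the study's methods name. Probes without a symbol (1719 of 25697) or with a detection p above 0.05 on all arrays were left out, which kept 14795 probes of 10796 genes. Symbols were updated by gene identifier for 23962 of 23978 annotated probes, and 16 kept the platform symbol. limma 3.58.1 (R 4.3.3) was fitted to all 3 groups without a block, with Benjamini-Hochberg adjustment over all probes (6 residual degrees of freedom, prior 3.11, median SD 0.429). Median signal per array was 145.2 to 195.6 for LPS, 193.6 to 215.5 for untreated and 123.8 to 164.5 for in vivo arrays, with 46.6% to 50.1% of probes detected. The number of arrays limits the precision. Each replicate is 1 litter.

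All 33 genes were reported by role, each by its brightest tested probe, other probes where their call or direction differed, and of every other list the counts and at most its 2 largest called genes. Promoters were chosen by the largest difference in untreated gliospheres. The genes and lists were chosen with earlier results of these data known. Alternatives covered background correction, normalization, the authors' table, detection filters, empirical Bayes options, array weights, samples in the fit, the replicate block, the probe of a gene and each array left out. Replicate numbers of LPS and untreated gliospheres mark a shared litter, split before treatment. Deviations of same-numbered arrays correlated at 0.16, 0.09 and 0.17, and of other numbers at -0.14 to -0.02. In vivo arrays are not tied to a gliosphere array by the labels.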

Additional observations from a re-analysis of the deposited data

How the results depend on the processing

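With 3 arrays a group, calls near the threshold depended on the setting. Of the called genes, 3 of 8 (untreated against in vivo) and 6 of 10 (LPS against in vivo) passed in every one of 19 alternatives, and 0 of 1 (LPS against untreated) in all 22. LPS against untreated gave 104 genes in all and 1 of the 28. The 28 gave 3 without background correction (135 genes in all), in the authors' table (133 genes) and with trend and robust eBayes (153 genes). They also gave 3 with array weights (338 genes) and with only the 2 groups (159 genes). After quantile normalization they gave 2 (149 genes). With only the gliosphere arrays and their own detection filter, chosen after seeing the data, it gave 3 (191 genes), and 2 with the replicate block on these arrays (169 genes). The replicate block over all 9 arrays gave 0 (78 genes). With 1 array left out it gave 0 to 2 (0 without any 1 of the gliosphere arrays), and 32 genes (without untreated array 3) to 176 genes (without in vivo array 1). Untreated against in vivo gave 5 with only the 2 groups (1900 genes in all), against 8 (2808 genes). With 1 array left out this comparison gave 4 to 9, and 4 without any 1 of the untreated arrays. The genes in all then ran from 1825 without untreated array 2 to 3489 without in vivo array 1. LPS against in vivo gave 6 without the detection filter (2677 genes in all), against 10 (3166 genes). With 1 array left out that comparison gave 6 (without LPS array 2 or 3 or in vivo array 2) to 11. The genes in all then ran from 2134 without LPS array 2 to 3903 without in vivo array 1. In the table normalized by the authors, differences of untreated gliospheres from in vivo cells were smaller by over 1.5 times for Egln3 (1.54), Hk2 (0.63), P4ha1 (1.52), P4ha2 (0.54) and Gapdh (-0.39), and those of LPS gliospheres for Egln3 (2.23), Hk2 (1.77), P4ha1 (1.57), P4ha2 (1.89) and Pdk1 (0.46), in the same directions. With probes averaged, Pfkp gained a call in untreated gliospheres against in vivo cells (-1.06, against -0.44), since its dim probe then enters. That probe was detected on in vivo arrays only, so the gained call is not read as a result. The cause of the other changes was not tested. Against the fit of all 9 arrays without a block, the block changed only calls of P4ha2, Hk2, Gapdh, Pfkm and Hk1, given above. On the gliosphere arrays with their own detection filter, Slc2a1 passed without the block and not with it. Requiring detection on 3 arrays moved the median of all genes in the untreated comparison to 0.14, against 0.09. The dim signals of Pfkfb3, Adm and Egln1 limit what these arrays can show.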
